A study of Mus musculus with 16 samples.

Results

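The mitosis and kinetochore genes are 49 named genes whose products drive cells into mitosis, build the spindle and attach chromosomes to it. They were taken as listed by name, but the list was chosen with earlier results of these data known. Their shares beside those of all genes are therefore descriptions. Of the 49 genes, 48 were measured here by 1 probe set each, out of 22180 genes tested in all, and Ccnb1 was not analysed here. The arrays hold RNA of group 2 innate lymphoid cells (ILC2s), tissue lymphocytes that make type 2 cytokines when they sense the alarm cytokine IL-33. Lung ILC2s of C57BL/6J mice came from untreated (naive) animals (n = 2) and from animals given IL-33 through the nose 4 days (n = 3), 2 weeks (n = 3) or 4 months (n = 2) earlier. The mediastinal node (mLN), which receives lymph from the lung, gave ILC2s of day 4 after IL-33 (n = 3) and of week 2 (n = 3), and the labels of these samples give no strain. There is no naive node group, so a change from rest to day 4 can be read in the lung only. The labels call the samples biological replicates without saying whether mice were pooled, and they name no markers used to isolate the cells.

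A cell enters mitosis when cyclins activate the kinase Cdk1, and it leaves when the anaphase-promoting complex, switched on by Cdc20, marks those cyclins and the securin for destruction. Between these steps the kinetochore, a protein platform built on each centromere, captures spindle microtubules, and the spindle checkpoint holds back Cdc20 until every chromosome is attached. Transcripts of most of these genes are low in resting cells and rise in the G2 phase and mitosis of dividing cells, so bulk RNA cannot separate more cells in division from more transcript per dividing cell.

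Promoters are shown first because many genes of this kind are known to share a pair of elements: the CHR (cell cycle genes homology region), bound by the MuvB complexes that repress these genes in resting cells and activate them in dividing cells, and CCAAT boxes bound by NF-Y. The RefSeq promoter table (GRCm38.p6) held windows from 250 bases before to 50 bases after the transcription start for 42 of the 49 listed genes. The letters TTTGAA of the CHR, searched on both strands, occurred in the windows of 32 of these 42 genes (76.2%), against 20.2% of all 27025 genes in the table. CCAAT, searched on both strands, occurred in 30 (71.4%, against 41.1% of all genes), and 22 genes (52.4%, against 13.3%) held at least 2 CCAAT boxes. Both elements stood together in 26 genes (61.9%), against 7.97% of all genes. TTTCCCGC, the only E2F letters searched, were found in 0 of the 42 genes (1.24% of all genes), and the TATA letters TATAAA in 2 (4.76%, against 15.7%). Because these exact E2F letters are rare over all genes, their absence here does not show that the promoters lack E2F sites. Positions were counted over 46 windows, since some genes had more than 1. Overlapping windows of a gene, as in Ect2 and Prc1, count the same match more than once. Of the 78 CCAAT matches in these windows, 76 began before the start, and the median position was -69.5. The 45 CHR matches centred on the start, with a median position of 3 and 21 of them before it. These matches are letters in a window and not measured binding sites. The 4 windows below belong to the first genes in order of role that held both elements, and they are the 250 bases before the start, 5′ to 3′ on the gene's own strand. Capitals mark CHR letters (TTTGAA, or TTCAAA on the other strand) and CCAAT boxes (CCAAT, or ATTGG on the other strand), and adjoining or overlapping boxes run together. Cdk1, the central mitotic kinase, lies at chr10:69352913-69353162 on the minus strand, Ccnb2, cyclin B2, at chr9:70421555-70421804 on the minus strand, Cdc20 at chr4:118437344-118437593 on the minus strand, and Ube2c, the ubiquitin-conjugating enzyme of the anaphase-promoting complex, at chr2:164769679-164769928 on the plus strand.
Cdk1: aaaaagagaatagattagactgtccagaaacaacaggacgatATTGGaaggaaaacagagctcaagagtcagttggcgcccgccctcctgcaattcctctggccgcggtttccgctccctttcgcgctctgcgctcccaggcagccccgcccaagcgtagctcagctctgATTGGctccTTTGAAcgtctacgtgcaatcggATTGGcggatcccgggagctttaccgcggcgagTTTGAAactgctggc
Ccnb2: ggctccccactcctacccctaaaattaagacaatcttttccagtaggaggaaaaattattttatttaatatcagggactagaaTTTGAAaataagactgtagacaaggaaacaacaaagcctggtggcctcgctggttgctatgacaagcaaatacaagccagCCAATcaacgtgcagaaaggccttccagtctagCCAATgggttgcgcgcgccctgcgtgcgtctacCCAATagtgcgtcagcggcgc
Cdc20: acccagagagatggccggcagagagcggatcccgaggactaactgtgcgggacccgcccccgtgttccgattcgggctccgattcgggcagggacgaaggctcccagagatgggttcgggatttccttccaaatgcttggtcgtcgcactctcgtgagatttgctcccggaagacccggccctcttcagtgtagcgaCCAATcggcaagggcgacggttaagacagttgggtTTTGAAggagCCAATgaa
Ube2c: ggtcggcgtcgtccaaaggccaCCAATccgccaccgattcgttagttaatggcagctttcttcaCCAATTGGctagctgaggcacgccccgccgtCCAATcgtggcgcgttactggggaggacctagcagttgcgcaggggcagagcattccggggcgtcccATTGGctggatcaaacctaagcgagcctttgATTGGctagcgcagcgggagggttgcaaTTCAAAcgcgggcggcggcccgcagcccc
In these stretches Cdk1 holds 2 CHR matches and 3 CCAAT boxes, Ccnb2 has 1 CHR match and 3 boxes, Cdc20 has 1 and 2, and Ube2c has 1 and 6. All of these genes were called higher at day 4 in the lung and lower again at week 2 in lung and node, as described below. From naive to day 4 in the lung the median log2 difference was 1.35 (range 0.41 to 2.96) in the 26 measured genes with both elements. It was 1.66 (0.55 to 3.38) in 15 whose windows lacked 1 or both, and 1.27 (0.84 to 2.54) in 7 without a window. These ranges overlapped, and the 15 included genes with a CHR match but no CCAAT box, such as Ndc80. Whether the change goes with the letters was not tested.

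All values are log2 signals from RMA, so 1 unit is a doubling, and a level is compared only with other levels of the same gene. Genes were called at a limma adjusted p under 0.05 over all 22180 genes. The mean of 14 measured ILC2 marker genes, among them Gata3 and Rora, lay between 9.07 and 9.76 on all arrays, while the defining receptor Il1rl1 was not analysed here. The naive and 4-month arrays stood apart in quality: their lowest correlations between replicates were 0.937 and 0.947, against at least 0.977 in the other groups, and their signals had narrower ranges (mean interquartile ranges 2.42 and 2.26 against 2.88 to 2.99). T cell markers (10 genes, mean signal) were at 6.64 to 6.82 in naive lung and at 5.08 to 5.55 elsewhere, and NK cell markers (7 genes) were at 5.23 to 5.29 in naive lung, at 4.59 to 5.11 at 4 months and at 3.58 to 4.44 elsewhere. Macrophage markers (13 genes) were at 5.88 and 5.96 on lung day 4 replicates 1 and 2 against 4.46 on replicate 3, at 5.39 on lung week 2 replicate 3 against 4.01 and 4.23 on the others, and at 3.58 to 3.89 on the node arrays. The naive arrays were split as well, with macrophage markers at 5.003 and 4.154 and neutrophil markers (6 genes) at 5.64 and 3.78 on replicates 1 and 2. Neutrophil markers were at 5.89, 5.64 and 3.72 in the lung at day 4, and lay at 5.87 to 6.04 at 4 months and at 3.27 to 3.36 in the node. Epithelial markers (6 genes) were at 4.31 to 4.33 in naive lung, 4.94 to 5.56 in the lung at day 4, 4.70 to 5.80 at week 2, 4.35 to 4.45 at 4 months and 3.69 to 4.98 in the node. The part of these other cells in the results was not tested, but counts without the lung arrays high in macrophage markers are given below.

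The mean log2 signal of the 48 genes separated the day 4 node and the day 4 lung from all other groups. It was 3.93 and 3.83 on the naive arrays, 5.63, 5.32 and 5.40 in the lung at day 4, 4.12, 4.14 and 4.12 in the lung at week 2, and 3.83 and 3.84 at 4 months. In the node it was 6.83, 7.53 and 6.96 at day 4 and 4.43, 4.31 and 4.33 at week 2. The node at day 4 was the highest group for all 48 genes, and the lung at day 4 was second for 45 of them. For the remaining 3, Kif18a, Kif20b and Anln, the week 2 node stood second. Below day 4 the order of groups varied from gene to gene: the naive lung was lowest for 21 genes, the 4-month lung for 17, the week 2 lung for 7 and the week 2 node for 3, and most neighbouring groups there were not separated by the tests that follow. In the day 4 groups many genes also peaked on the same array. Of the 48, 46 had their highest array in node day 4 replicate 2, and 33 had their highest lung day 4 value in replicate 1. In the other groups the highest values were split between arrays. The counts were 26 and 22 in naive lung, 14, 16 and 18 in the lung at week 2, 26 and 22 at 4 months, and 16, 13 and 19 in the node at week 2. The same counts were not made over all genes.

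**Figure D1:**
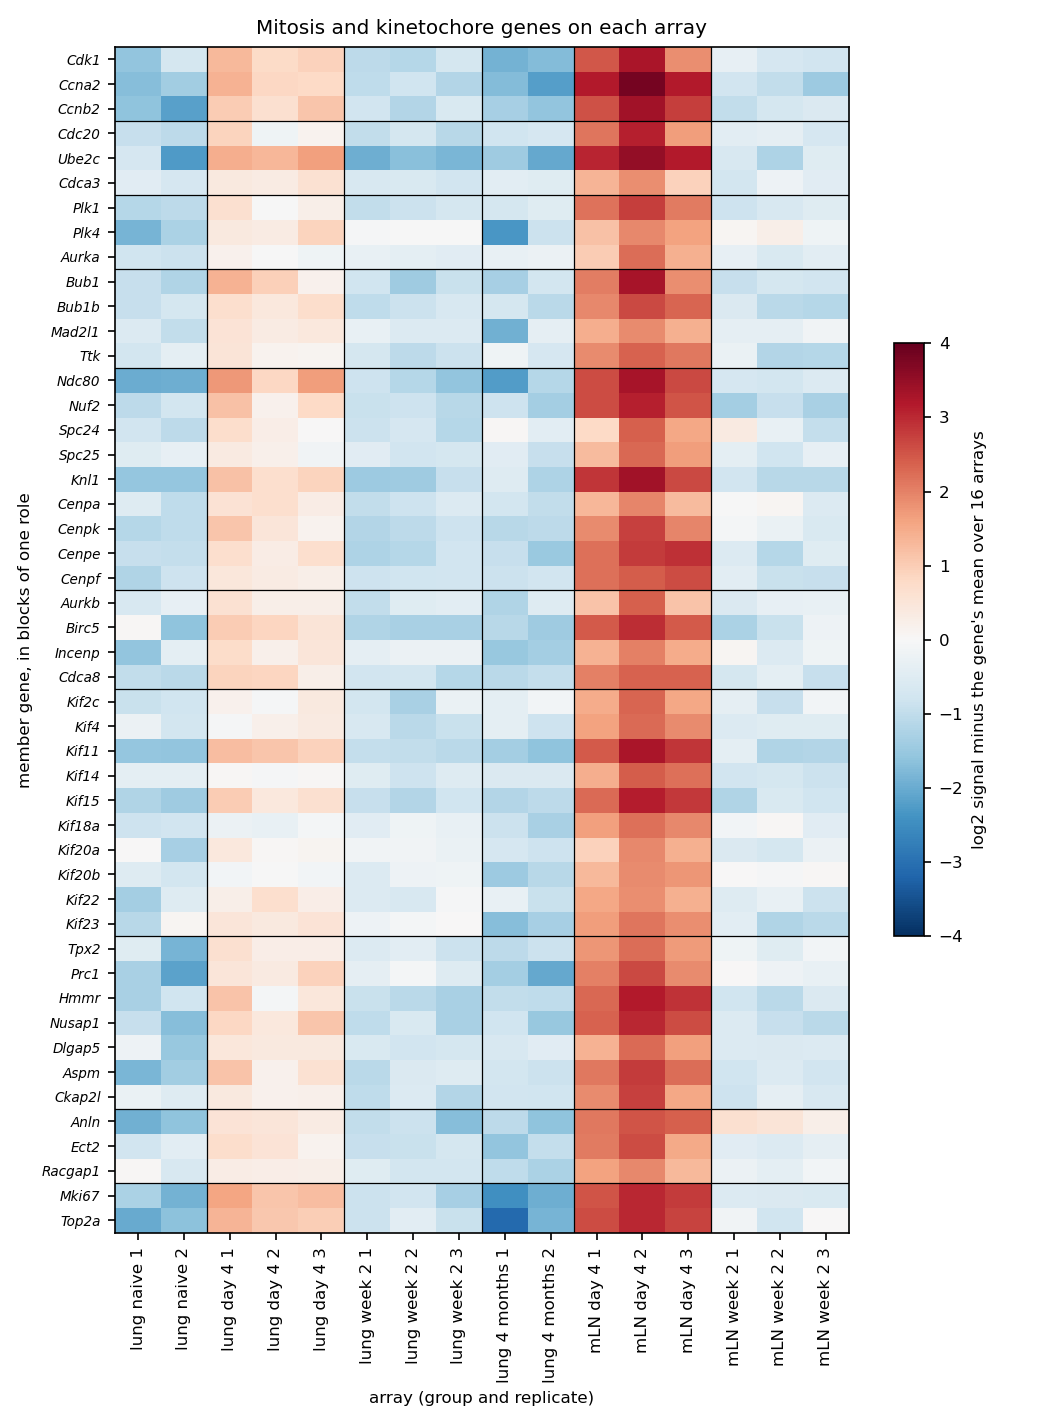
Each row is 1 of the 48 genes, in blocks of one role, and each column 1 array; colour gives the log2 signal minus the gene's mean over 16 arrays. The 3 node day 4 columns are the reddest, with replicate 2 above the others, the lung day 4 columns are paler red, and the naive, week 2 and 4-month columns are mostly blue.

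At day 4 after IL-33, genes of every mitotic role stood higher in the lung than in its naive cells. Of the 48 genes, 39 rose and 0 fell, with a median log2 difference of 1.44 and a range from 0.41 to 3.38, beside a median of -0.06 over all genes. Over all genes, 10.8% were called higher and 5.73% lower. Every gene was higher on each of the 3 day 4 arrays than on both naive arrays (48 of 48, against 22% of all genes). Without lung day 4 replicates 1 and 2 and week 2 replicate 3, the arrays high in macrophage markers, 22 genes were called higher, where that fit called 2.44% of all genes higher, with a median of 1.27 and a lone day 4 lung array.

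The cyclins and their kinase rose in 3 of 3 cases. Ccnb2 was at 4.93 and 4.36 in naive cells and reached 7.57, 7.19 and 7.66 at day 4, a rise of 2.83 ± 0.26 (SE, limma adjusted p = 5.44e-06). Cdk1 was at 3.64 and 4.50 and reached 6.49, 5.99 and 6.13 (2.14 ± 0.33, adjusted p = 0.000469). In both genes the 2 groups were more than a log2 unit apart at their nearest arrays, and Ccna2, cyclin A2, which acts from S phase into early mitosis, rose by 2.54 ± 0.27. The genes of the anaphase-promoting complex and mitotic entry rose in 3 of 3 cases but by different amounts. Ube2c was at 5.10 and 3.52 in naive cells and at 7.24, 7.10 and 7.41 at day 4 (2.94 ± 0.35, adjusted p = 4.71e-05). Cdca3, which promotes destruction of the entry inhibitor Wee1, moved from 4.33 and 4.10 to 5.16, 5.10 and 5.37 (0.99 ± 0.24, adjusted p = 0.00947), and its call was lost without naive replicate 2 (0.88). Cdc20 moved from 4.19 and 4.06 to 6.01, 4.94 and 5.25 (1.28 ± 0.34, adjusted p = 0.0169). Day 4 replicate 1 stands above its fellows in Cdc20, whose call was lost without it (0.97) and without naive replicate 2 (1.21).

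Among the mitotic kinases, 3 of 3 rose. Plk4, the kinase that starts centriole duplication, was at 3.51 and 4.10 in naive cells against 5.77, 5.72 and 6.25 at day 4 (2.11 ± 0.34, limma adjusted p = 0.000616). Plk1, which acts in spindle formation and mitotic exit, was at 3.80 and 3.87 against 5.57, 4.92 and 5.16 (1.38 ± 0.23, adjusted p = 0.000848). Aurka, the kinase of spindle poles, moved less, from 4.10 and 4.06 to 5.07, 4.89 and 4.74 (0.82 ± 0.26, adjusted p = 0.0377). Groups did not overlap in any of these genes, but the Aurka call was lost without naive replicate 1 (0.84) or 2 (0.80) and without day 4 replicate 1 (0.74) or 2 (0.83). The spindle checkpoint rose in 4 of 4 genes. Bub1, a checkpoint kinase at the kinetochore, was at 3.01 and 2.72 against 5.32, 4.87 and 4.11 (1.90 ± 0.38, adjusted p = 0.00325). Ttk, the kinase that starts checkpoint signalling, was at 3.29 and 3.65 against 4.55, 4.19 and 4.12 (0.82 ± 0.27, adjusted p = 0.0443). Ttk was close to the threshold: its call was lost when any 1 of the 5 arrays was left out, with values from 0.64 to 1.00. The other checkpoint genes, Bub1b (1.42 ± 0.23) and Mad2l1 (1.19 ± 0.32), encode subunits of the complex that inhibits Cdc20.

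Kinetochore genes rose in 8 of 9 cases, with unequal changes inside one complex. Ndc80, whose product grips the microtubule, was at 2.71 and 2.75 in naive cells against 6.44, 5.53 and 6.35 at day 4, a rise of 3.38 ± 0.33 (limma adjusted p = 8.03e-06). Both naive values lie below 3.73, the 40th percentile of all values, and no detection calls were used, so the size of this rise from a dim start is uncertain. Its partners in the 4-protein NDC80 complex gave 1.61 ± 0.28 for Nuf2, 1.22 ± 0.39 for Spc24 and 0.55 ± 0.27 for Spc25. Spc25 was the exception that did not pass (limma adjusted p = 0.17), with 3.16 and 3.31 in naive cells against 4.01, 3.84 and 3.50. Nuf2 and Spc25 also started below 3.73 (naive means 3.60 and 3.24), as did Cenpk (2.24), Knl1 (3.15) and Cenpf (3.39). The sizes of their differences are uncertain in the same way, and so is the inequality within the NDC80 complex. The same holds for genes of other roles with naive means below 3.73, such as Bub1 (2.86), Hmmr (2.73) and Aspm (3.05). Knl1, the scaffold that recruits checkpoint proteins, rose by 2.47 ± 0.26 and Cenpk, of the inner centromere network, by 1.66 ± 0.28. The motor Cenpe (1.48 ± 0.26), the outer protein Cenpf (1.36 ± 0.20) and Cenpa, the centromeric histone H3 variant (1.28 ± 0.25), rose less.

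The chromosomal passenger complex, which corrects wrong attachments and later directs cytokinesis, rose in 3 of 4 genes. Cdca8, its subunit borealin, was at 3.21 and 3.09 against 5.07, 5.05 and 4.43 (1.70 ± 0.23, limma adjusted p = 0.000132), and Incenp, its scaffold, rose by 1.45 ± 0.29. Birc5, survivin, was at 5.16 and 3.51 on the naive arrays against 6.12, 5.97 and 5.64 (1.57 ± 0.37, adjusted p = 0.00857). The naive arrays differ widely in Birc5, and without naive replicate 2 the difference was 0.75 and no longer called. Aurkb, the kinase of the complex, was at 4.22 and 4.54 against 5.48, 5.09 and 5.10 and did not pass (0.84 ± 0.32, adjusted p = 0.086). Kinesins, the motors that move along spindle microtubules, were the least uniform group, with 5 of 10 called. Kif11, which pushes spindle poles apart, was at 3.75 and 3.73 against 6.53, 6.40 and 6.21 (2.64 ± 0.25, adjusted p = 7.84e-06). Kif15, which can share that work, rose by 2.01 ± 0.25, and Kif22 (1.33 ± 0.28), Kif2c (1.01 ± 0.31) and Kif23 (1.00 ± 0.29) rose less. Kif14, which acts with the midbody in cytokinesis, gave the smallest difference of the 48 genes, 3.92 and 3.90 against 4.35, 4.26 and 4.34 (0.41 ± 0.23, adjusted p = 0.232). The other uncalled kinesins gave 0.85 for Kif20a, 0.67 for Kif4, 0.59 for Kif18a and 0.55 for Kif20b.

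Spindle assembly and microtubule genes rose in 6 of 7 cases. Prc1, which bundles the microtubules of the central spindle, was at 4.13 and 3.30 on the naive arrays against 5.92, 5.77 and 6.34 (2.30 ± 0.29, limma adjusted p = 7.58e-05). Ckap2l was at 3.45 and 3.22 against 4.10, 3.89 and 3.93 and did not pass (0.64 ± 0.28, adjusted p = 0.128). Between them lay Aspm, a spindle pole protein (2.25 ± 0.27), Nusap1 (2.10 ± 0.30), Tpx2, an activator of Aurka (1.57 ± 0.30), Hmmr (1.53 ± 0.31) and Dlgap5 (1.27 ± 0.29). Of the cytokinesis genes, 2 of 3 rose. Anln, which organises the contractile ring, was at 3.18 and 3.48 against 5.64, 5.58 and 5.43 (2.22 ± 0.25, adjusted p = 2.84e-05), and Ect2, an activator of the small GTPase RhoA, rose by 1.05 ± 0.27. Racgap1, a partner of Kif23 in the central spindle, was at 5.52 and 4.85 against 5.79, 5.75 and 5.72 and did not pass (0.57 ± 0.22, adjusted p = 0.0866), although it passed without naive replicate 1 (0.91). Both genes of chromosome structure rose strongly. Mki67, the marker protein Ki-67 that coats mitotic chromosomes, was at 5.47 and 4.87 against 8.34, 7.84 and 7.97 (7.35-fold, adjusted p = 2.62e-06). Top2a, the topoisomerase that untangles sister chromatids, was at 4.33 and 4.69 against 7.69, 7.42 and 7.32. Neither gene has a day 4 array within 2 log2 units of a naive one.

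**Figure D2:**
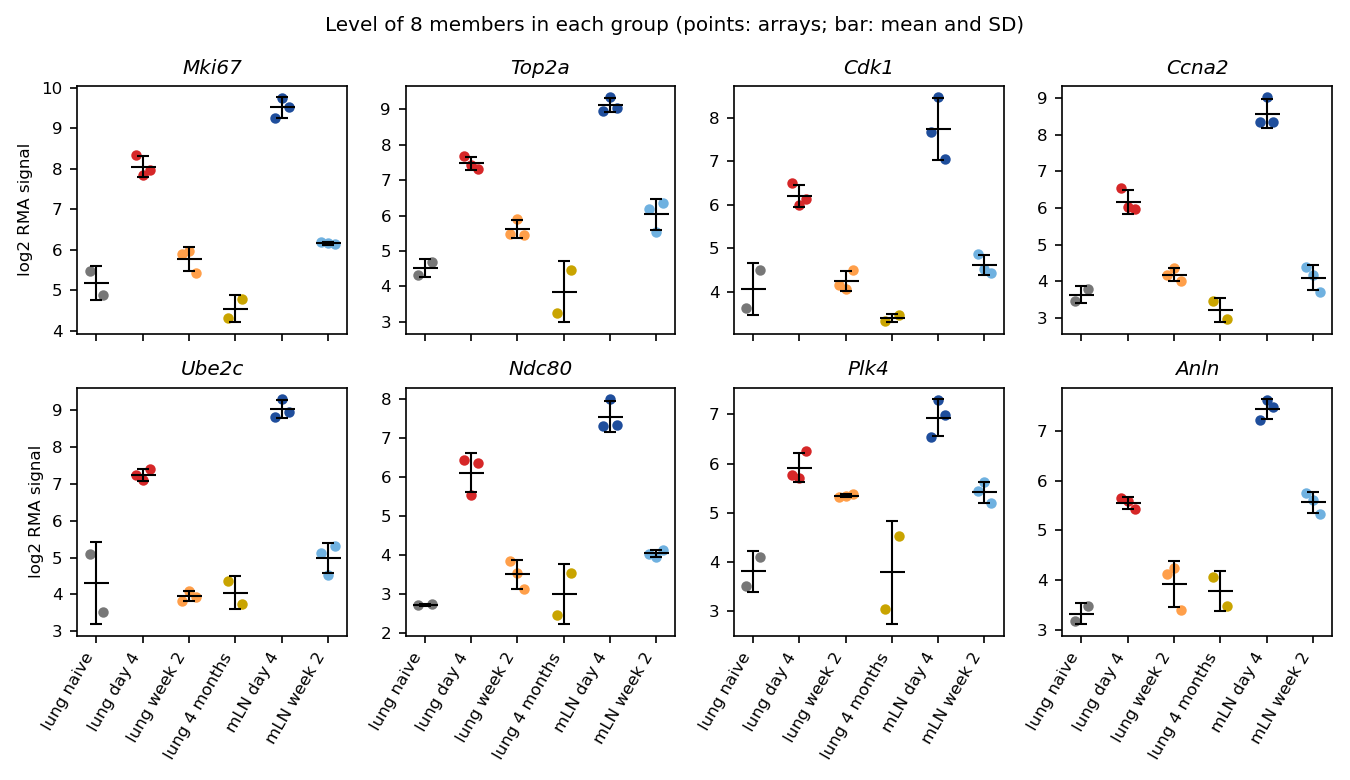
Log2 RMA signal of 8 of the genes in the 6 groups, with 1 point per array and a bar for the mean and SD; each panel has its own vertical range. The node day 4 points are highest in every panel, Plk4 remains above naive at week 2 in the lung, and Anln at week 2 is higher in the node than in the lung.

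By week 2 most of this rise had gone. Between day 4 and week 2 in the lung, 32 of 48 genes fell and 0 rose, with a median of -1.21 (range -3.30 to -0.10), in a comparison that called 1.39% of all genes lower. These genes made up 66.7% of the 48 and 10.4% of the 308 genes called lower. The week 2 arrays lay below all day 4 arrays in 47 of 48 genes (11.9% of all genes), and Kif18a overlapped. Without the arrays high in macrophage markers the median was -1.18, close to the full value, while 5 genes were called with the lone day 4 array, in a fit that called 0.189% of all genes lower.

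Ube2c fell furthest, from 7.24, 7.10 and 7.41 to 3.82, 4.10 and 3.93 (-3.30 ± 0.31, 9.84-fold, limma adjusted p = 2.5e-05). Ndc80 dropped from 6.44, 5.53 and 6.35 to 3.86, 3.55 and 3.12 (-2.60 ± 0.29, adjusted p = 0.000109). Mki67 reached 5.90, 5.96 and 5.42 (-2.29 ± 0.22, adjusted p = 2.5e-05), with 2 of the 3 arrays above both naive ones. Knl1 fell from 5.88, 5.39 and 5.60 to 3.25, 3.29 and 3.78 (-2.18 ± 0.23), and Kif11 from 6.53, 6.40 and 6.21 to 4.33, 4.32 and 4.23 (-2.09 ± 0.23). Birc5, at 3.90, 3.80 and 3.83, fell by 2.07 on the log2 scale, and Cdk1, at 4.16, 4.07 and 4.51, by 1.95. Top2a went to 5.48, 5.91 and 5.45 (-1.86 ± 0.28) and Plk1 to 3.95, 4.05 and 4.23 (-1.14 ± 0.21, a call lost without day 4 replicate 1, at -0.96). Cdc20, at 4.12, 4.42 and 4.00, was at the threshold (-1.22 ± 0.30, adjusted p = 0.0499), and its call was lost without 5 of the 6 single arrays of these groups, with values from -1.34 to -0.92. Aurkb, at 3.88, 4.38 and 4.43, did not pass (-0.99 ± 0.29, adjusted p = 0.114). By role, 3 of 3 cyclin and kinase genes, 7 of 9 kinetochore genes and 5 of 7 spindle genes fell, but 1 of 3 mitotic kinases and 3 of 10 kinesins did. The uncalled kinesins included Kif23 (-0.57), Kif20b (-0.23) and Kif18a (-0.10).

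Against naive cells, 4 of the 48 genes were higher in the lung at week 2 and 0 were lower, with a median of 0.20, where 6.75% of all genes were called higher and 2.87% lower. A share of 8.33% is near that background. The 4 were Plk4 (1.54 ± 0.34, limma adjusted p = 0.00969), Prc1 (1.39 ± 0.29, adjusted p = 0.00715), Top2a (1.10 ± 0.31, adjusted p = 0.0345) and Ccnb2 (1.06 ± 0.26, adjusted p = 0.0186). Plk4 was at 5.32, 5.35 and 5.38 at week 2, beside 3.51 and 4.10 in naive cells and 5.77, 5.72 and 6.25 at day 4, and its fall from day 4 did not pass (-0.56 ± 0.30, adjusted p = 0.509). Prc1 was at 5.06, 5.34 and 4.90, between naive and day 4 in the same way (-0.91 ± 0.26 from day 4, adjusted p = 0.102). These calls were fragile: Plk4 was lost without naive replicate 1 (1.25), Prc1 without naive replicate 2 (0.97), Top2a without naive replicate 1 (0.92) or any week 2 array (0.95 to 1.18), and Ccnb2 without naive replicate 2 (0.77) or week 2 replicate 1 (1.01) or 3 (0.94). The count was 2 without week 2 replicate 1, and 1 without the arrays high in macrophage markers, where 2.25% of all genes were called higher.

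At 4 months the genes were at naive levels as far as 2 arrays against 2 could show. Against naive lung 0 of 48 were called in either direction, with a median of -0.0038 and 24 above and 24 below, where 0.717% of all genes were called higher and 1.25% lower. At an unadjusted p under 0.05, 2 genes were higher and 5 lower in limma. Against day 4, 43 of 48 fell and 0 rose (median -1.53, range -3.62 to -0.26), in a comparison that called 16.6% of all genes lower. Top2a, at 3.24 and 4.47, fell by 3.62 on the log2 scale (12.3-fold, limma adjusted p = 2.31e-06), and Mki67, at 4.30 and 4.78, gave -3.51 ± 0.24. Ube2c, at 4.36 and 3.74, gave -3.20 ± 0.35, and Ndc80, at 2.45 and 3.54, gave -3.11 ± 0.33. Ccna2, at 3.46 and 2.98, and Cdk1, at 3.33 and 3.47, gave -2.96 ± 0.27 and -2.80 ± 0.33. Birc5, at 3.99 and 3.70, fell as well (-2.07 ± 0.37). The falls of Aurkb (-1.22 ± 0.32), Cdc20 (-1.02 ± 0.34) and Plk1 (-0.89 ± 0.23) were called but lost without 4-month replicate 1, at -0.87, -0.97 and -0.79. Cdc20 was also lost without 4-month replicate 2 (-1.08) or day 4 replicate 1 (-0.72), and Plk1 without day 4 replicate 1 (-0.71). The 5 genes that did not pass were Aurka, Ttk, Spc24, Kif2c and Kif14.

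Between week 2 and 4 months, 9 of 48 genes fell and 0 rose, with a median of -0.14, in a comparison that called 11.5% of all genes lower. Top2a (-1.76 ± 0.31, limma adjusted p = 0.00255), Plk4 (-1.56 ± 0.34, adjusted p = 0.00748), Kif23 (-1.43 ± 0.29), Prc1 (-1.37 ± 0.29), Mki67 (-1.22 ± 0.24) and Incenp (-1.18 ± 0.29) moved most. Kif23, a motor of the central spindle, was at 5.35, 5.47 and 5.56 at week 2 and at 3.85 and 4.21 at 4 months, and Incenp was at 4.98, 5.11 and 5.10 against 3.81 and 3.96. Plk4 was at 3.04 and 4.53 at 4 months and Prc1 at 4.07 and 3.39. In these 4 genes the groups did not overlap, although the 4-month arrays lay far apart in Plk4. Every 4-month array lay below every week 2 array in 16 of the 48 genes, beside 26.7% of all genes. Kif20b (-0.98), Ccna2 (-0.97) and Kif18a (-0.77) completed the 9. Without 4-month replicate 1 the count was 2, and the calls of Top2a (-1.14), Plk4 (-0.82), Kif23 (-1.25), Mki67 (-0.98) and Incenp (-1.10) were lost.

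**Figure D3:**
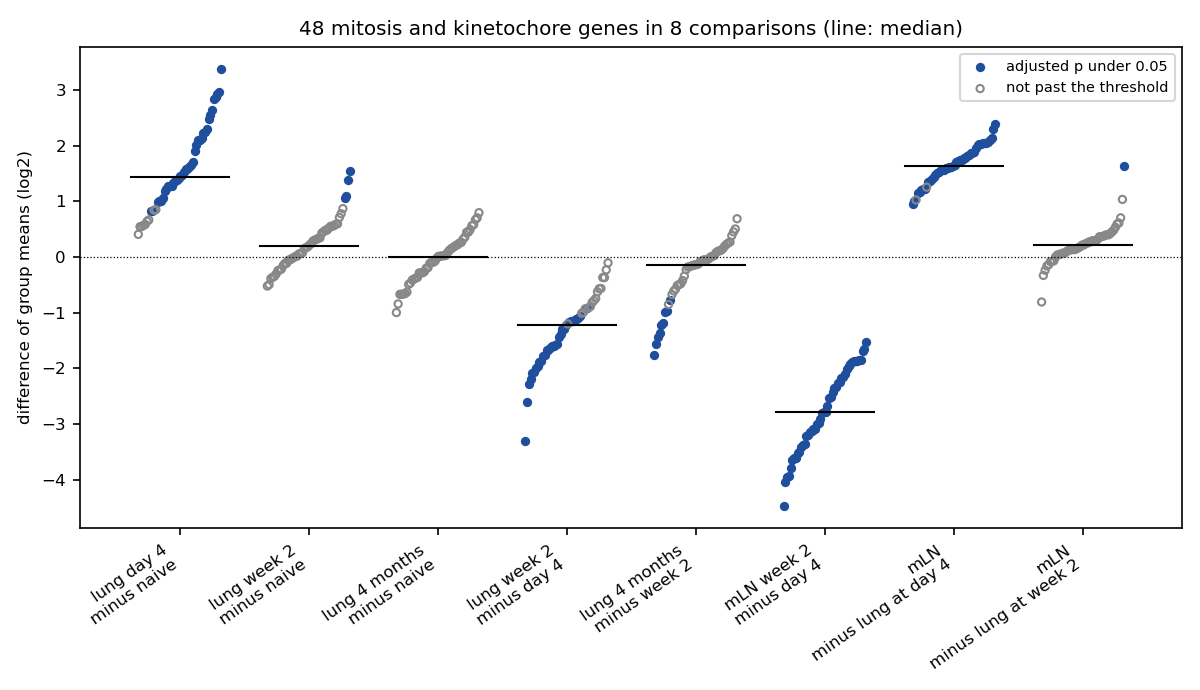
Each point is the log2 difference of group means for 1 of the 48 genes, sorted within each of 8 comparisons; filled points passed the adjusted threshold, open points did not, and the line is the median. The medians run from 1.44 at day 4 against naive lung to -2.79 from day 4 to week 2 in the node, and the 4-month genes straddle 0 against naive cells.

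At day 4 the node ILC2s stood above the lung ILC2s in every gene. The mLN was called higher in 46 of 48 genes and lower in 0, with a median of 1.64 and a narrow range from 0.95 to 2.39, while 0.978% of all genes were called higher. The 46 genes were 95.8% of the 48 and 21.2% of the 217 genes called higher in the node. All 48 had every node array above every lung array (9.57% of all genes). Plk4 (1.02 ± 0.30, limma adjusted p = 0.104) and Spc24 (1.25 ± 0.35, adjusted p = 0.083) did not pass. Without the lung arrays high in macrophage markers the median was 1.76 and 27 genes were called against the lone lung array, in a fit that called 0.316% of all genes higher. Tissue and any separate handling of lung and node cannot be told apart in these samples.

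Ccna2 differed most, at 6.55, 6.02 and 5.96 in the lung and 8.34, 9.02 and 8.35 in the node (2.39 ± 0.24, 5.25-fold, limma adjusted p = 2.6e-05). Hmmr, a spindle and hyaluronan-binding protein, was at 4.90, 3.68 and 4.21 against 6.05, 6.95 and 6.66 (2.29 ± 0.28, adjusted p = 0.000145). Kif18a, which dampens chromosome movements at the metaphase plate, was at 4.23, 4.18 and 4.40 against 6.12, 6.67 and 6.40 (2.13 ± 0.19, adjusted p = 5.94e-06). Ccna2 and Hmmr were already raised in the lung at day 4, but Kif18a was not called there against naive cells, and the same holds for Kif14 (2.02 ± 0.20 in node over lung), Ckap2l (1.81 ± 0.25), Kif4 (1.74 ± 0.20) and Kif20b (1.72 ± 0.18). Cenpe was at 5.71, 5.35 and 5.72 against 7.26, 7.84 and 7.97 (2.10 ± 0.23), Cenpf at 4.87, 4.74 and 4.65 against 6.59, 6.83 and 7.01 (2.06 ± 0.18), and Kif15 at 5.37, 4.78 and 4.99 against 6.62, 7.48 and 7.19 (2.05 ± 0.23). In these 3 genes the gap between tissues exceeded the whole spread within either tissue. Of the commonly used markers of division, Plk1 gave 2.04 ± 0.21, Cdc20 2.02 ± 0.30, Birc5 1.83 ± 0.33, Top2a 1.64 ± 0.28, Cdk1 1.53 ± 0.29 and Mki67 1.47 ± 0.22, and all passed. Aurkb passed too (1.20 ± 0.29, adjusted p = 0.0353), but was lost without node replicate 2 (0.78) or any single lung array (1.13 to 1.33). By role all 10 kinesins, 7 of 7 spindle genes and 8 of 9 kinetochore genes were higher in the node.

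From day 4 to week 2 in the node all 48 genes fell, with a median of -2.79 and a range from -4.47 to -1.52, in a comparison that called 1.18% of all genes lower. They were 18.3% of the 262 genes called lower. Every week 2 array lay below every day 4 array in all 48 genes (8.51% of all genes). Ccna2 fell from 8.34, 9.02 and 8.35 to 4.41, 4.18 and 3.72 (-4.47 ± 0.24, 22.1-fold, limma adjusted p = 3.16e-08). Ube2c fell from 8.82, 9.30 and 8.96 to 5.12, 4.53 and 5.30 (-4.04 ± 0.31), and Knl1 from 7.58, 8.07 and 7.35 to 3.94, 3.61 and 3.59 (-3.95 ± 0.23). Nuf2 went from 7.10, 7.62 and 7.02 to 3.15, 3.57 and 3.21 (-3.93 ± 0.25), and Kif11 from 7.74, 8.57 and 8.15 to 4.90, 4.09 and 4.11 (-3.79 ± 0.23). Ccnb2 went from 9.09, 9.92 and 9.32 to 5.57, 5.85 and 5.97 (-3.64 ± 0.23). At day 4 replicate 2 is the highest array in each of these 6 genes, and at week 2 no array is consistently lowest. The smallest falls were those of Plk4, from 6.54, 7.29 and 6.98 to 5.45, 5.62 and 5.19 (-1.52 ± 0.30, adjusted p = 0.00999), Kif20b (-1.66 ± 0.18) and Cenpa (-1.68 ± 0.22). Mki67 fell to 6.20, 6.16 and 6.13 (-3.36 ± 0.22), Birc5 by 3.41, Cdk1 by 3.12, Top2a by 3.09, Plk1 by 3.00, Cdc20 by 2.79 and Aurkb by 1.95 on the log2 scale.

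At week 2 the tissues were close. Of the 48 genes 1 was called higher in the node and 0 lower, with a median of 0.22, where 0.334% of all genes were called higher. That gene was Anln, at 4.13, 4.24 and 3.40 in the lung and 5.75, 5.61 and 5.34 in the node (1.64 ± 0.22, 3.12-fold, limma adjusted p = 0.00104). Anln in the week 2 node was thus at the level of the lung at day 4 (5.64, 5.58 and 5.43), and its fall in the node was nearly that in the lung (-1.87 ± 0.22 and -1.63 ± 0.22). With Anln included, node and lung arrays did not overlap for 12 genes with the node higher (25% of the 48, against 9.97% of all genes) and for 1 with it lower (9.95% of all genes). Among them Ube2c had the next largest difference (1.03, adjusted p = 0.194) and Kif23 was the one that was lower in the node (-0.81, adjusted p = 0.248).

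The fall from day 4 to week 2 was larger in the node than in the lung in all 48 genes. As the test of that difference, the change in the node minus the change in the lung was negative for every gene (median -1.40, range -2.48 to -0.25), and 16 of 48 passed. Over all genes 0.113% were called lower in this term, 25 genes in all, so the 16 were 64% of those and 33.3% of the 48. The largest were Ccna2 (-2.48 ± 0.34, limma adjusted p = 0.00423), Nuf2 (-2.27 ± 0.35, adjusted p = 0.013), Kif23 (-2.21 ± 0.37, adjusted p = 0.0188), Kif14 (-2.18 ± 0.29, adjusted p = 0.00371), Hmmr (-2.02 ± 0.39, adjusted p = 0.0475) and Cenpf (-2.00 ± 0.25, adjusted p = 0.00251). Kif14 had fallen by 0.62 in the lung, where it was not called, and by 2.81 in the node, from 5.77, 6.74 and 6.51 to 3.54, 3.62 and 3.43. Kif23 behaved alike, with 7.22, 7.69 and 7.40 at day 4 and 5.13, 4.34 and 4.49 at week 2 in the node (-2.78 ± 0.26) against -0.57 ± 0.26 in the lung. By role the 16 held 6 of 10 kinesins, 4 of 9 kinetochore genes, 2 of 4 checkpoint genes and 2 of 3 cyclin and kinase genes, and 0 genes of the passenger complex, cytokinesis, anaphase-promoting complex or chromosome groups. Of the genes described throughout, Plk1 passed (-1.85 ± 0.29), whereas Cdc20 (-1.57), Birc5 (-1.34), Top2a (-1.22), Cdk1 (-1.17), Mki67 (-1.07) and Aurkb (-0.96) did not. At the other end Anln (-0.25 ± 0.32) and Cenpa (-0.39 ± 0.32) fell almost as far in the lung as in the node. Node day 4 replicate 2, the array highest in nearly all of these genes, weighs on this result: without it 5 genes were called and the median was -1.19. That fit called 7 of all genes lower, against 25 in the full fit. Without lung day 4 replicate 2, or lung week 2 replicate 2 or 3, the count was 6. Those fits called 8, 7 and 9 of all genes lower. The count was 7 without node week 2 replicate 2 or 3 (13 and 11 of all genes). It was 9 without lung week 2 replicate 1 (12 of all genes) and 10 without node week 2 replicate 1 (14 of all genes). Without the arrays high in macrophage markers 1 gene was called, of 2 called lower over all genes, with a median of -1.54. The calls of Hmmr and Kif23 were lost without any of 10 and of 6 single arrays, at values from -2.14 to -1.73 for Hmmr and from -2.21 to -2.06 for Kif23, and that of Nuf2 without node day 4 replicate 2 (-2.08) or lung week 2 replicate 2 (-2.21).

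**Figure D4:**
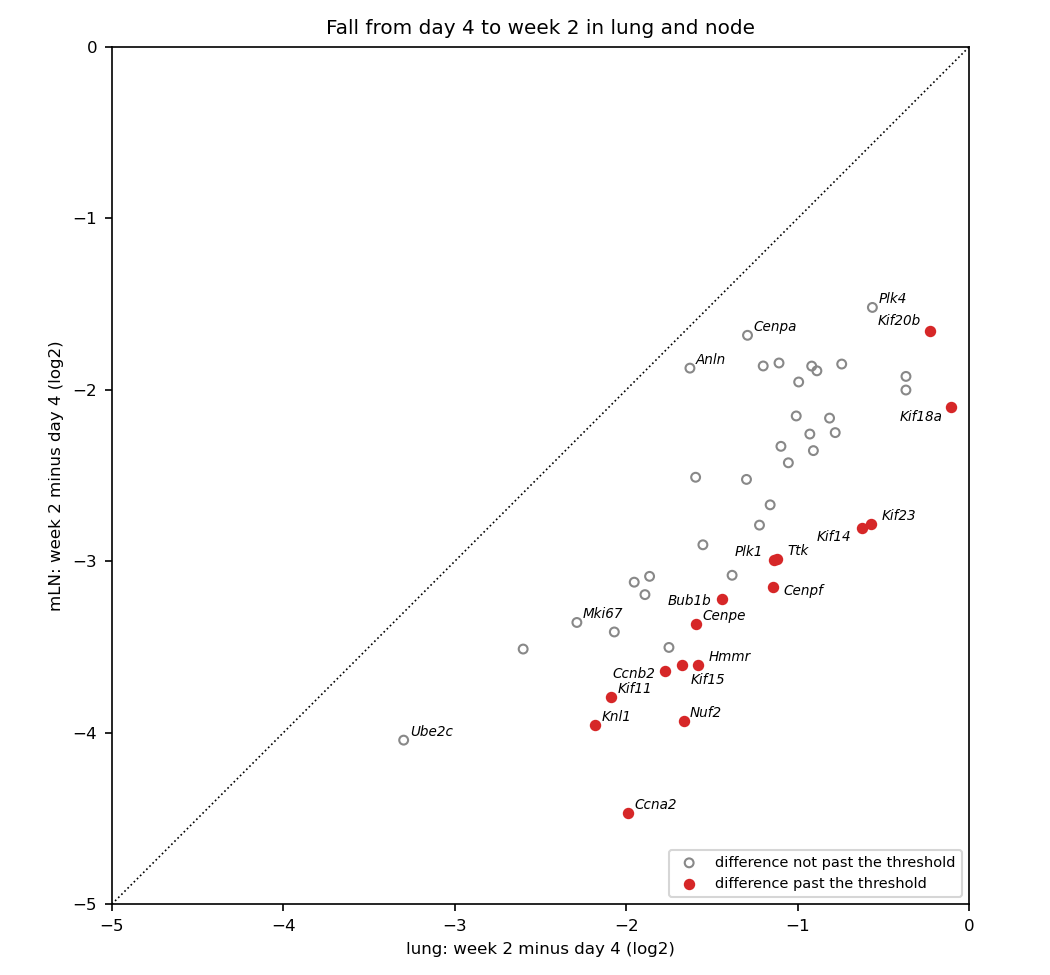
Log2 change from day 4 to week 2 in the lung (horizontal) and in the node (vertical) for each of the 48 genes; filled points are the 16 genes whose difference between tissues passed, and the dotted line marks equal change. All points lie below the line, Anln and Cenpa nearest to it.

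Across the 48 genes the falls in lung and node correlated with r = 0.761, a description over genes that share the same arrays and are not independent replicates. Ube2c, Ndc80 and Mki67 fell far in both tissues, while Kif18a and Kif20b fell in the node with lung changes of -0.10 and -0.23.

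Lists of related genes were set beside these, and their counts stand against the shares of all genes called higher at day 4 against naive lung (10.8%), higher in the node than in the lung at day 4 (0.978%) and lower in the node at week 2 (1.18%). Of 29 other measured kinetochore and centromere genes, 9 rose at day 4 in the lung (median 0.54), 14 were higher in the node than in the lung at day 4 (median 0.92), and 15 fell in the node to week 2 (median -1.16). Ska3, of a complex that stabilises kinetochore attachment, rose by 2.04 ± 0.37 at day 4 in the lung, and Spag5, a spindle and kinetochore protein also known as astrin, gave 1.71 ± 0.23 in node over lung and -2.64 ± 0.23 from day 4 to week 2 in the node. Of 41 other genes of mitotic entry, spindle and cytokinesis, 16 rose in the lung at day 4 (median 0.64), 27 were higher in the node (median 1.16) and 27 fell there (median -1.50), with 0 in the opposite direction each time. Haspin, the kinase that places the passenger complex on centromeres, rose by 2.64 ± 0.23 in the lung, and Depdc1a fell by 4.18 on the log2 scale in the node. The anaphase-promoting complex list holds core subunits with the activator Fzr1 and the ubiquitin-conjugating enzyme Ube2s. Of 16 measured, 5 rose at day 4 in the lung against naive, 6 were higher than naive at week 2 (the 5 and Anapc1), where 6.75% of all genes were, and 0 differed between node and lung at day 4 (median 0.21) or changed in the node to week 2 (median -0.19) in limma, with 3 and 4 genes at an unadjusted p under 0.05. Those higher in the lung at day 4 included Anapc16 (2.45 ± 0.31) and Cdc16 (1.15 ± 0.24).

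Of 20 regulators of mitotic transcription, 6 rose at day 4 in the lung and 0 fell, among them Tfdp1 (1.91 ± 0.34), E2f2 (1.50 ± 0.26) and E2f8 (1.23 ± 0.21). In the node 3 stood above the lung at day 4 and 6 fell to week 2. Foxm1, the factor that joins MuvB to activate G2 and mitotic genes, was at 3.47 and 3.47 in naive lung, 4.41, 4.66 and 4.57 in the lung at day 4, 3.59, 3.51 and 3.80 at week 2 and 3.45 and 3.32 at 4 months. In the node it was at 6.00, 6.35 and 5.65 at day 4 and at 3.79, 3.70 and 3.23 at week 2. Foxm1 thus was highest in the node at day 4 and next in the lung at day 4, as were most of the 48 genes, with 1.45 ± 0.19 in node over lung at day 4 (limma adjusted p = 0.00033), -2.42 ± 0.19 from day 4 to week 2 in the node, and a larger fall there than in the lung (-1.51 ± 0.27, adjusted p = 0.0312). E2f8, an atypical E2F that represses S phase genes, gave 1.53 ± 0.19 and -2.87 ± 0.19 in the first 2 of these comparisons.

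DNA replication genes moved in the same directions as the mitotic genes, with smaller medians. Of 28 measured, 16 rose at day 4 in the lung (median 0.76), 8 were higher in the node than in the lung (median 0.69), 13 fell in the node to week 2 (median -0.80) and 0 passed for the difference in fall between tissues in limma (6 at an unadjusted p under 0.05). Rrm2, a subunit of ribonucleotide reductase, gave 1.45 ± 0.30 in node over lung, and Cdc6, which licenses replication origins, 1.16 ± 0.20. Among 14 G1 cyclins and Cdk inhibitors, Cdkn1a, which encodes the Cdk inhibitor p21, ran the other way between tissues. It was at 7.21 and 7.34 in naive lung, 8.52, 8.69 and 9.87 in the lung at day 4, 9.22, 9.32 and 9.31 at week 2 and 8.69 and 8.66 at 4 months, but at 6.12, 6.20 and 7.48 in the node at day 4 and 9.13, 9.02 and 8.61 at week 2. At day 4 Cdkn1a was lower in the node than in the lung (-2.43 ± 0.34, limma adjusted p = 0.000483), and it rose in the node by week 2 (2.32 ± 0.34, adjusted p = 0.000594), where it was the only one of the 14 that rose. The test of the difference between these tissue changes did not pass for Cdkn1a (2.07 ± 0.48, adjusted p = 0.117). In the lung it had risen at day 4 against naive (1.76 ± 0.38), together with 39 of the 48 mitotic genes.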

How the data were processed

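The authors deposited log2 RMA signals, 1 per probe set and array, made with Affymetrix Expression Console per the submitters' processing notes. The sources used here give neither tool versions nor the build. Of 41345 probe sets, 23521 had 1 gene symbol, 1814 several and 16010 none. Genes were named from those with 1 symbol, which left 22180 genes; the probe set with the highest mean stood for a gene. Depth has no meaning for arrays, so precision rests on 2 or 3 arrays a group.

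One limma model (limma 3.58.1, R 4.3.3) with a mean for each group took in all 16 arrays and was tested first on simulated data. Its residual and prior degrees of freedom were 10 and 6.52, it had no block and no filter, and two-sided p-values were Benjamini-Hochberg adjusted over all genes. The ± values are moderated standard errors. P-values measure only the spread between these arrays.

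Members and lists were chosen with earlier results of these data known. Values on every array were given for the genes with the largest and smallest day 4 change in each role, for up to 6 called genes with the largest change in each other comparison, and for Mki67, Top2a, Cdk1, Plk1, Aurkb, Birc5 and Cdc20. Up to 3 called genes of each other list were named. Kif20b and Cenpa in the node, and the genes at the ends of the week 2 and tissue comparisons, were named after their values were seen.

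Alternatives were arrays centred on their medians, repeated quantile normalization, a filter on dim genes, trend and robust fits, weights for arrays, the compared groups fitted alone, a log2 change of at least 1, the replicate number as a block, each array left out, and the lung arrays high in macrophage markers left out. Promoters came from RefSeq (GRCm38.p6).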

Additional observations from a re-analysis of the deposited data

Results flagged for a closer look

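The fall from day 4 to week 2 differed between node and lung for 16 genes by limma's interaction term, each falling further in the node. The differences, in the order of the genes' roles, were -2.48 for Ccna2 and -1.87 for Ccnb2 among the cyclins, -1.85 for the kinase Plk1, and -1.78 for Bub1b and -1.86 for Ttk in the spindle checkpoint. Among kinetochore genes they were -2.27 for Nuf2, -1.77 for Knl1, -1.78 for Cenpe and -2.00 for Cenpf. Among kinesins they were -1.70 for Kif11, -2.18 for Kif14, -1.93 for Kif15, -1.99 for Kif18a, -1.43 for Kif20b and -2.21 for Kif23, and for the spindle gene Hmmr -2.02. All 16 had every node array above every lung array at day 4, as did all 48 genes (9.57% of all genes). None of the 16 was called between the tissues at week 2, where 47 of the 48 genes were not called. Node day 4 replicate 2 was the highest array for 46 of the 48 genes, and without it 5 genes passed this test. Of all genes, 7 were called lower in that fit, against 25 in the full fit. Groups of 2 or 3 arrays were too small to look for single outlying arrays gene by gene.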

How the results depend on the processing

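No named gene result that was called in the main fit changed direction under any alternative. Changes of sign in uncalled results were not counted. The median at 4 months against naive, -0.0038 in the main fit, changed sign when naive replicate 1 was left out (0.03). Of 1894 recalculations of the named gene results, 1763 stayed on the same side of the threshold, 125 lost the call and 6 gained it. Leaving out the lung arrays high in macrophage markers, which keeps 1 day 4 lung array assumed to vary like the others, moved counts most: 22 genes for day 4 against naive, 1 for week 2 against naive, 5 for lung week 2 against day 4, 25 for 4 months against day 4, 27 for node against lung at day 4 and 1 for the difference in fall. Array weights gave 2 for week 2 against naive, 3 for node against lung at week 2 (2 higher and 1 lower) and 28 for the difference in fall. Over all genes that fit called 572 higher, 377 higher and 315 lower, and 90 lower in these comparisons. Fits of only the groups compared gave 1 for week 2 against naive and 2 for node against lung at week 2. Of all genes, those fits called 421 higher for the first, and 161 higher and 149 lower for the second. Repeated quantile normalization gave 2 lower at 4 months against naive (468 of all genes), 10 for the difference in fall (14 of all genes lower), and a median of -0.34 from week 2 to 4 months.

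With each array left out in turn, the counts ran from 30 to 36 for day 4 against naive, 2 to 6 for week 2 and 0 to 2 for 4 months against naive, 24 to 30 for lung week 2 and 32 to 40 for 4 months against day 4, 2 to 9 from week 2 to 4 months, 46 to 48 for the fall in the node, 36 to 45 for node against lung at day 4, 1 to 1 at week 2, and 5 to 17 for the difference in fall. The medians in the same order ran from 1.35 to 1.55, 0.11 to 0.24, -0.16 to 0.03, -1.33 to -1.14, -1.65 to -1.43, -0.17 to -0.04, -2.88 to -2.50, 1.49 to 1.84, 0.18 to 0.24 and -1.53 to -1.19. With the replicate number as a block the counts were 38, 4, 0, 31, 42, 9, 48, 45, 1 and 14. Deviations from group means were correlated between same-numbered arrays. In none of 15 pairs of groups was every such correlation over 0.1 (range -0.104 to 0.184), so the numbers were not taken as pairs. Between lung and node at day 4 all were positive (0.0285 to 0.184, mean 0.101). Deviations cancel out within a group, so the mean for other numbers (-0.0503) largely follows from that value and is no separate contrast. With 2 or 3 arrays a group, whether lung and node shared mice cannot be told. Counts over all genes moved with the array left out as well. Without node day 4 replicate 2, 7 of all genes were called lower for the difference in fall, against 25 in the full fit. For node over lung at day 4 that fit called 115 of all genes higher, against 217. The cause of these shifts was not tested.

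The naive and 4-month groups of 2 arrays limit what can be seen against them, and there is no naive node. The median signal of the 48 genes was 3.87 and 3.74 on the naive arrays, near the 40th percentile of all values (3.73), and no detection calls were used here.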
